A study of Mus musculus with 10 samples.

Results

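Atf4 and 9 genes of the amino acid stress response were followed through the knockdown of Larp1 in P19 cells, a mouse embryonal carcinoma line. The 10 genes are the regulators Atf4, Ddit4 and Trib3, the amino acid synthesis enzymes Asns, Psat1 and Phgdh, the mitochondrial folate enzymes Shmt2 and Mthfd2, and the amino acid transporter pair Slc7a5 and Slc3a2. They were taken by gene name from the reads on annotated mRNAs whose poly(A) tail estimate had passed quality control, and they held 4446 of 2042110 such reads, for 10 of 13272 genes. Cells received a pool of scrambled siRNAs (siCtl) or the Larp1 siRNA (siLarp1) and were harvested at 24 h (3 siCtl and 3 siLarp1 libraries) or at 48 h (2 siCtl and 2 siLarp1 libraries), the later cells having been transfected again at 24 h. The labels name no other treatment and no withdrawal of amino acids. The RNA was selected on oligo-dT and read directly on nanopores, so that each read is 1 RNA molecule with the length of its tail.

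Atf4 is a transcription factor whose protein is made mainly under stress, when the initiation factor eIF2 is phosphorylated and ribosomes pass over the short reading frames upstream of its coding sequence. It then turns on genes for the synthesis, import and charging of amino acids, and it is also raised by mTORC1, the kinase complex that senses amino acids. Larp1 binds mRNAs that start with a run of pyrimidines and lies downstream of mTORC1, whereas Ddit4 restrains mTORC1 through the Tsc proteins.

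Atf4 and its partners bind elements that share the core TGATGNAA. Promoter windows from 250 bases before to 50 bases after the RefSeq start site (build GRCm38.p6) were found for 9 of the 10 genes, all but Slc7a5, and were searched for this core on both strands. It was present in 2 of these 9 genes, against 3.97% of the 32851 promoters in the table, and the windows of Atf4, Ddit4, Psat1, Phgdh, Shmt2, Mthfd2 and Slc3a2 did not hold these letters. A match to these letters does not show that Atf4 binds there, and binding was not measured. The matches are shown as the stretches of these windows that hold the core, with the core in capitals (on the opposite strand in Trib3) and each sequence written along the gene:
Asns promoter, chr6:7693215-7693242, minus strand, core beginning at −23: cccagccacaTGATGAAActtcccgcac
Trib3 promoter, chr2:152344029-152344056, minus strand, core beginning at 14: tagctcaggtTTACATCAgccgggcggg
Positions are counted from the start site at 0. The first 5 bases of the start site were free of A and G in 1 of the 9 genes (Shmt2) and in 4.44% of all promoters. Of the known pyrimidine-start mRNAs Eef1a1 and Rpl4, this measure found the start of Eef1a1 but missed that of Rpl4. It therefore says little about the other genes.

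The kept reads numbered 112720 to 423398 per library, and each siLarp1 library at 24 h was shallower than each siCtl library. All 4 libraries at 48 h came from 1 pool, but at 24 h each treatment had its own pool, and there the effect of the siRNA and that of the pool cannot be told apart. Libraries are named here by the numbers of the deposited table (19, 21 and 22 at 24 h, and 24 and 25 at 48 h, in both treatments). The study's methods call them biological replicates without saying whether these were separate cultures, so that p-values measure only the spread between these libraries. Larp1 itself had 75.9, 84.2 and 85.0 reads per 1000000 kept reads (RPM) in siCtl and 33.4, 44.9 and 19.1 RPM in siLarp1 libraries at 24 h, and 169 and 123 RPM against 18.5 and 24.9 RPM at 48 h, without overlap, although its adjusted p in the limma fit of all genes was 0.827 at 24 h and 0.252 at 48 h. The P19 markers summed to between 3245 and 4257 RPM, with 7 of 8 markers detected (all but Zfp42). The 5 neuron markers summed to between 157 and 285 RPM with Neurod1 at 0, nearly all from Stmn2 (421 reads in all, against 3 to 6 each for Map2, Dcx and Elavl4), and the 4 endoderm markers reached at most 6.37 RPM with Sox17 and Afp at 0.

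Atf4 was the member whose abundance differed most clearly between treatments at 24 h, by an amount that did not pass the test. It had 297, 337 and 283 RPM in siCtl libraries 19, 21 and 22, from 86, 116 and 120 reads. In the siLarp1 libraries it had 334, 426 and 369 RPM, from 40, 57 and 58 reads. The groups overlapped by a narrow margin, since siLarp1 library 19 lay just under siCtl library 21. The difference amounted to 1.24-fold (95% interval 1.00 to 1.54), with an unadjusted p of 0.0498 and an adjusted p of 0.868 (limma). At 48 h Atf4 had 284 and 448 RPM in siCtl libraries 24 and 25 and 352 and 489 RPM in siLarp1 libraries, a ratio of 1.10 (95% interval 0.774 to 1.55). The groups overlapped at 48 h too. The siLarp1 library was the higher in each of the 5 library numbers. These numbers are not established as pairs, and no paired test was made. At 24 h the treatments also differed in pool. In bulk RNA a higher share of reads from more cells and from more molecules per cell cannot be told apart. Most Atf4 reads (89.8%) were assigned to the transcript ENSMUST00000109605.4 (GRCm38 chr15:80255184-80257541, plus strand), and the others to a model annotated as a retained intron.

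Ddit4, which encodes an inhibitor of mTORC1, was the most variable member, and its libraries differed far more by number than by treatment. At 24 h it had 162, 305 and 96.8 RPM in siCtl libraries 19, 21 and 22, and 225, 292 and 127 RPM in the siLarp1 libraries of the same numbers. The 48 h values were 186 and 498 RPM in siCtl libraries 24 and 25, and 136 and 498 RPM in siLarp1 libraries. Libraries 21 and 25 were thus high and libraries 22 and 24 low in both treatments. The treatment groups overlapped at both time points, with a log2 fold change of 0.29 (SE 0.28) at 24 h and −0.47 (SE 0.44) at 48 h, neither past the threshold (limma, adjusted p = 0.973 and 0.931). A term for the library number beside treatment, added after these values had been seen, was called by limma for Ddit4 at 24 h, 1 of 10 members against 1.04% of 4800 genes, and at 48 h, 1 of 9 against 0.148% of 2704 (adjusted p = 2.42e-08 and 1.13e-06), but not with reads thinned to equal depth (adjusted p = 0.304 and 0.866). In the unthinned fits the spread was borrowed wholly from all genes, and that of Ddit4 itself had no weight. At an unadjusted p under 0.05 the number term had 2 of 10 members at 24 h (Ddit4 and Slc3a2), against 8.79% of all genes, and 4 of 9 at 48 h (Ddit4, Shmt2, Atf4 and Phgdh), against 6.88%. Libraries of the same number carried the same barcode in both treatments at 24 h, but not at 48 h. Over the 10 libraries the coverage of Ddit4 ranged from 20 to 105 reads.

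Trib3, a pseudokinase induced by Atf4 that in turn dampens it, was rare. It had 70 reads in all, with 34.5, 43.6 and 26.0 RPM in siCtl and 16.7, 22.4 and 31.8 RPM in siLarp1 libraries at 24 h, from 10, 15 and 11 and from 2, 3 and 5 reads. The fold change at 24 h was 0.799 with a 95% interval from 0.375 to 1.70. At this depth a change of any size within that interval is not excluded. At 48 h its 24 reads fell short of the 30 needed for the test.

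The 3 synthesis enzymes did not share a direction. Asns, which makes asparagine from aspartate and glutamine, had 186, 259 and 213 RPM in siCtl and 225, 284 and 210.1 RPM in siLarp1 libraries at 24 h, with overlap. The 48 h values were 151 and 213 RPM in siCtl and 241 and 274 RPM in siLarp1 libraries, without overlap, from 17, 38, 39 and 33 reads. The ratio at 48 h was 1.37 (95% interval 0.930 to 2.02, limma adjusted p = 0.878). Psat1, the aminotransferase of the serine pathway, had 490.1, 569 and 505 RPM in siCtl and 492, 493 and 414 RPM in siLarp1 libraries at 24 h, and 435 and 492 against 346 and 465 RPM at 48 h. Its siLarp1 mean was the lower at both times (ratios 0.891 and 0.844), with overlap at both. Phgdh, which carries out the first step of serine synthesis, had a ratio of 1.03 (95% interval 0.821 to 1.28) at 24 h and 0.928 (0.640 to 1.35) at 48 h. Its values ran from 282 to 324 RPM in siCtl and from 287 to 350.4 RPM in siLarp1 libraries at 24 h, and from 231 to 358 RPM over the 4 libraries at 48 h.

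The siLarp1 means of both mitochondrial folate enzymes were the lower at 24 h, within the overlap of the groups, and at 48 h only that of Mthfd2 was. Shmt2, which takes a carbon unit from serine to form glycine, had 162, 215 and 163 RPM in siCtl and 133, 202 and 146 RPM in siLarp1 libraries at 24 h. At 48 h it had 142 and 229 RPM in siCtl libraries 24 and 25 and 136 and 290.3 RPM in siLarp1 libraries, so that library 25 was again the high one in both treatments. Mthfd2, which oxidizes that carbon unit further, had 142, 148 and 111 RPM in siCtl and 75.1, 172 and 127 RPM in siLarp1 libraries at 24 h, the lowest value resting on 9 reads. At 48 h it had 142 and 123 RPM in siCtl and 117 and 116 RPM in siLarp1 libraries, without overlap but from 14 to 22 reads each, and the ratio of 0.898 had a 95% interval from 0.567 to 1.42.

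The ratios of the transporter subunits were alike at 24 h (1.08 for Slc7a5 and 1.06 for Slc3a2). At 48 h they were 1.04 and 0.713, with overlapping 95% intervals (0.573 to 1.89 and 0.477 to 1.07). Slc7a5, the light chain that carries leucine and other large neutral amino acids, had 48.3 to 61.0 RPM in siCtl and 50.1 to 70.0 RPM in siLarp1 libraries at 24 h, from 6 to 24 reads, and 53.2 and 95.1 RPM against 80.2 and 83.0 RPM at 48 h. Slc3a2, its heavy chain, had 135, 200.4 and 184 RPM in siCtl and 133, 254 and 172 RPM in siLarp1 libraries at 24 h. At 48 h Slc3a2 had 213 and 207 RPM in siCtl and 154 and 141 RPM in siLarp1 libraries, without overlap, from 24, 37, 25 and 17 reads. The log2 fold change was −0.49 (SE 0.28), the largest among the members at either time point, and it did not pass the test (limma, unadjusted p = 0.0948, adjusted p = 0.878).

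**Figure D1:**
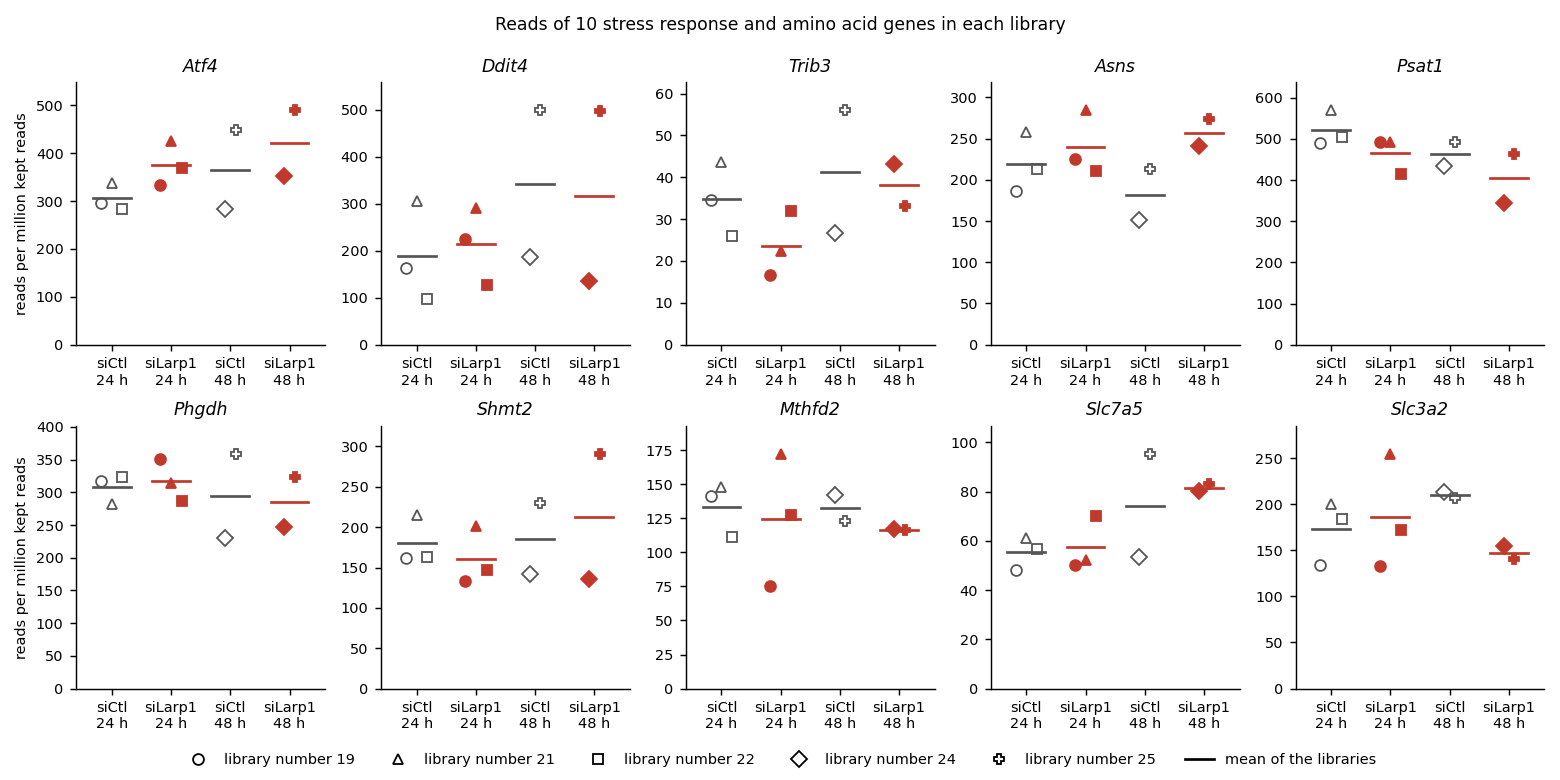
RPM of each gene (vertical axes, each from 0) in the 4 groups, with 1 symbol per library, the shape giving the library number, open grey for siCtl, filled red for siLarp1, and a bar at the mean. The groups overlap for all 10 genes at 24 h, and at 48 h they are apart for Asns (siLarp1 higher) and for Mthfd2 and Slc3a2 (siLarp1 lower).

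In the fits across all genes, no member passed the threshold of an adjusted p under 0.05. At 24 h this was 0 of 10 members against 0 of 4800 genes (0%), and at 48 h 0 of 9 against 0 of 2704 (0%). At an unadjusted p under 0.05, 1 of 10 members was higher at 24 h (Atf4) against 3.5% of all genes, and none was lower against 2.12%. At 48 h no member passed in either direction, against 2.59% higher and 2.4% lower. Groups did not overlap at 48 h for 1 of 9 members with higher siLarp1 values (18.2% of all genes) and for 2 of 9 with lower values (15.9%), and at 24 h for none of 10 in either direction (4.69% and 6.19%). The median log2 fold change of the members was 0.06 at 24 h, beside 0.01 over all genes, and −0.11 at 48 h, beside 0.02. No difference between the effects at 24 h and 48 h passed the test, with 0 of 9 members called against 0 of 2698 genes (0%), and Ddit4 had the largest such difference, −0.76 on the log2 scale (SE 0.51).

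**Figure D2:**
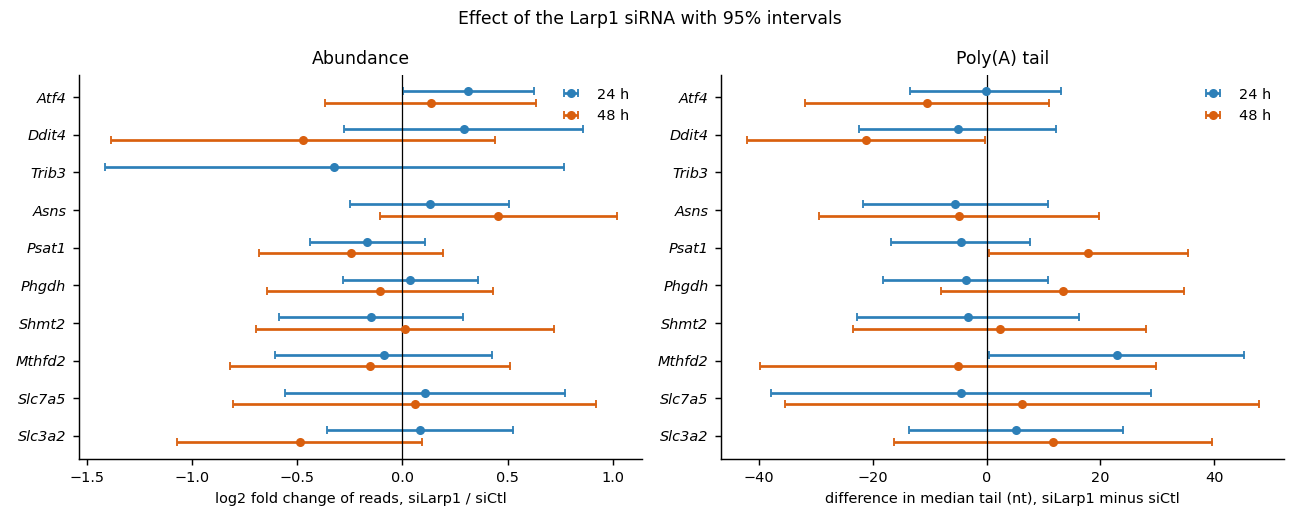
Effect of the Larp1 siRNA on each gene, as the log2 fold change of reads (left) and the difference in median poly(A) tail in nt (right), with 95% intervals from the limma fits, blue for 24 h and orange for 48 h. Trib3 was too rare for the tail fits and for 48 h, and the intervals that leave out 0 are those of Atf4 abundance and Mthfd2 tail at 24 h and of Ddit4 and Psat1 tail at 48 h.

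Tail lengths differed between the members, and this spread was not compared with that between the treatments. In siCtl libraries at 24 h the mean over libraries of the median tail was 134 nt ± 8.43 (SD, n = 3) for Slc7a5, 128 nt ± 3.16 for Asns and 119 nt ± 3.28 for Atf4, at percentiles 96.2, 93.0 and 84.6 of the 2568 genes with enough reads, whose median was 105 nt. The next were Psat1 (112 nt ± 9.90), Mthfd2 (111 nt ± 11.1), Slc3a2 (109 nt ± 12.6), Shmt2 (106 nt ± 7.59), Ddit4 (105 nt ± 4.58) and Phgdh (104 nt ± 8.78), which do not differ from each other beyond their spread. At 48 h in siCtl, Asns, Slc7a5, Ddit4 and Atf4 lay at percentiles 90.1, 86.4, 82.6 and 80.6 of 2415 genes, and Phgdh lay at percentile 5.94 with 68.8 and 87.8 nt. The tails of Slc7a5, Asns, Atf4, Mthfd2 and Ddit4 were above the median gene in siCtl libraries at both times. Mthfd2 lay at percentiles 68.0 and 64.8 there, and Ddit4 at only 51.8 at 24 h. In siLarp1 libraries Slc7a5 lay at percentiles 90.1 and 92.2, Asns at 84.5 and 80.1, and Atf4 at 81.4 and 58.3. Mthfd2 lay at 91.6 and 47.1 in siLarp1 libraries, and Ddit4 at 38.6 and 4.91.

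**Figure D3:**
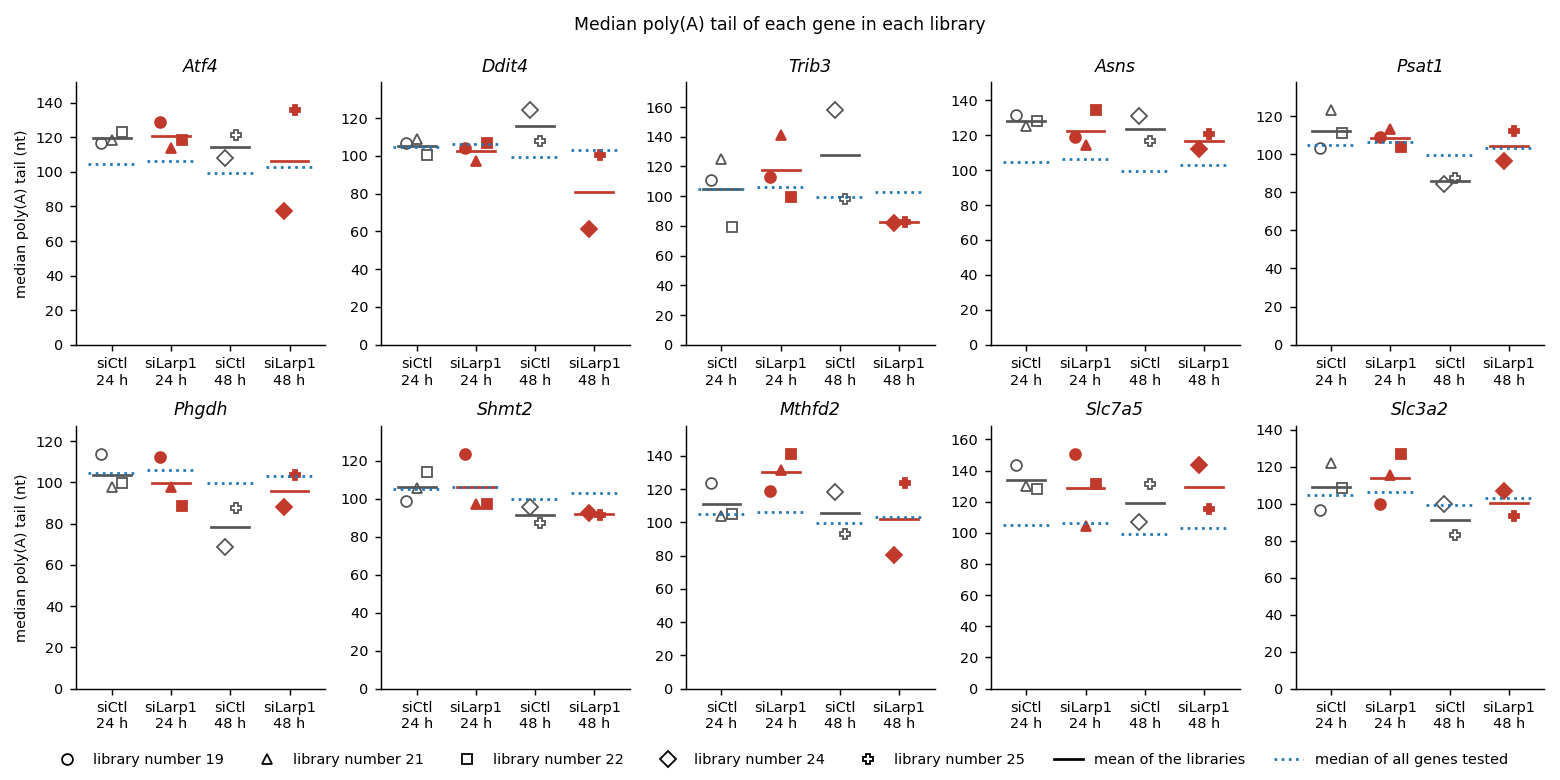
Median poly(A) tail in nt (vertical axes, each from 0) of each gene in the 4 groups, with 1 symbol per library as in the plot of reads, a bar at the mean of the libraries, and a dotted blue line at the median of all genes tested in that group. The Asns points lie above the dotted line in all 10 libraries, and the siLarp1 library 24 has low values for Atf4 (77.4 nt) and Ddit4 (61.0 nt).

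No tail difference between treatments passed the adjusted threshold in any member, with 0 of 9 members against 0 of 2568 genes (0%) at 24 h and 0 of 9 against 0 of 2415 (0%) at 48 h. At an unadjusted p under 0.05, 1 of 9 members had a longer tail in siLarp1 libraries at 24 h (3.43% of genes) and 1 of 9 at 48 h (4.06%), and 1 of 9 had a shorter tail at 48 h (1.74%). The first was Mthfd2, with 124, 104 and 105 nt in siCtl and 119, 132 and 141 nt in siLarp1 libraries at 24 h, a fitted difference of 22.8 nt (95% interval 0.460 to 45.2, limma adjusted p = 0.813). Its siLarp1 library 19, with 9 reads, lay among the siCtl values. The second was Psat1, with 84.6 and 87.4 nt in siCtl and 96.6 and 112 nt in siLarp1 libraries at 48 h, a difference of 17.9 nt (0.370 to 35.4, adjusted p = 0.833). The third was Ddit4 at 48 h, with 124 and 108 nt in siCtl and 61.0 and 100.4 nt in siLarp1 libraries, a difference of −21.2 nt (−42.1 to −0.298, adjusted p = 0.846), the low value resting on 22 reads of siLarp1 library 24.

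The tail classes gave the same count of calls. The share of Psat1 reads with tails of 30 to 90 nt was 53.1% and 48.9% in siCtl libraries and 39.3% and 30.4% in siLarp1 libraries at 48 h, from 49, 88, 56 and 56 reads, without overlap. The log2 odds differed by −0.92 (SE 0.38), with an unadjusted p of 0.0193 and an adjusted p of 0.731 (limma), and at 24 h, where the share was 35.9%, 30.6% and 32.7% in siCtl and 28.8%, 37.9% and 35.4% in siLarp1 libraries, by 0.09 (SE 0.25). The difference between these effects had an adjusted p of 0.876. In this class 0 of 9 members passed at either time, against 0% of genes, and the groups were apart at 48 h with lower siLarp1 values for Psat1, Phgdh and Slc3a2, 3 of 9 members against 24% of 2415 genes.

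Tails shorter than 30 nt were rare in the set. They made up 37 of 2236 member reads in siCtl and 14 of 887 in siLarp1 libraries at 24 h, and 19 of 696 and 30 of 627 at 48 h. Averaged over the 3 libraries of a group at 24 h, 1.63% ± 0.270 (SD, n = 3) of the reads were in this class in siCtl and 1.51% ± 0.640 in siLarp1, with overlap. In all kept reads the share at 24 h was 2.22%, 2.42% and 2.15% in siCtl and 2.66%, 3.22% and 2.63% in siLarp1 libraries, without overlap. In single libraries at 48 h the member share was 3.33% and 2.47% in siCtl and 5.67% and 3.98% in siLarp1 libraries, beside 2.96%, 2.82%, 4.20% and 3.37% in all kept reads. The siLarp1 shares were thus the higher at 48 h without overlap, both for the members and for all kept reads, a difference that was not tested. The exact 95% Clopper-Pearson intervals of the member shares at 48 h overlapped, from 1.35% to 6.75% and 1.28% to 4.27% in siCtl and from 3.34% to 8.92% and 2.13% to 6.70% in siLarp1 libraries, and they cover counting error only. By gene the share over all libraries ran from 0 of 129 reads for Slc7a5, which allows up to 2.33%, and 1.21% for Psat1 to 3.69% for Phgdh. No member was called in this class, against 0.0779% of genes higher and 0.701% lower at 24 h and 0% at 48 h. Asns had 0 of 17 and 0 of 38 such reads in siCtl and 2 of 39 and 1 of 33 in siLarp1 libraries at 48 h, a difference of 1.90 in log2 odds (SE 0.30, limma adjusted p = 0.228) that rests on these 3 reads.

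The positions where alignments ended were mapped for 9 of the 10 mRNAs. An alignment to a transcript model cannot run past the end of that model. The ends of Atf4, Trib3, Phgdh and Slc7a5 and the downstream Ddit4 end lay at that point, so that cleavage there is not established. Atf4, Trib3, Asns, Phgdh and Slc7a5 had a single cluster of ends holding 93.8% to 100% of their reads, and Psat1, Mthfd2, Slc3a2 and Ddit4 had 2 or 3. The genes with several well-used ends are shown with the 30 bases up to the end in GENCODE vM21 transcripts (GRCm38), 5′ to 3′, all on the minus strand, with a poly(A) signal AATAAA or ATTAAA in capitals where one was present. Among all 58616 protein-coding transcripts 44.19% hold either signal in their last 30 bases.
Psat1, 569 nt after the stop codon, chr19:15905477-15905506: atttctaatgaaacagttttgttcagccca
Psat1, 916 nt after the stop codon, chr19:15905130-15905159: tggaaaacATTAAAgtcctaagtcatctaa
Mthfd2, 663 nt after the stop codon, chr6:83305983-83306012: catttaaacttttaagtttcagactgttaa
Mthfd2, 892 nt after the stop codon, chr6:83305754-83305783: cggattttcttATTAAAgggttttcttgca
Mthfd2, 942 nt after the stop codon, chr6:83305704-83305733: ttaAATAAAgctcatctgtcgggtgtggaa
Slc3a2, 104 nt after the stop codon, chr19:8707619-8707648: ttttaaacttttgcagattacatacgaatt
Slc3a2, 156 nt after the stop codon, chr19:8707567-8707596: tcaAATAAAaacatcacccctgcctcatga
The most used end of each of these 3 genes was preceded by a signal. The upstream Slc3a2 end lies at the end of an annotated transcript model, so that an alignment to this model could not run further.

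Both Psat1 ends lay well inside its most used annotated transcript, 799 and 452 nt before its end, and both carried tails, with a median of 114 and 106 nt. The downstream end coincided with that of a model annotated as a retained intron, to which 6.26% of the Psat1 reads were assigned. A second protein-coding model, ENSMUST00000162053.7, with 11.1% of the reads, ends close by at position 15905127. Alignments to these models could not run past their ends. The upstream end held 15.8% of the Psat1 reads. It was used by 10.9%, 16.1% and 18.8% of the reads in siCtl and 14.5%, 21.1% and 9.68% in siLarp1 libraries at 24 h, with overlap. At 48 h it was used by 6.67% and 14.1% in siCtl and 19.2% and 25.5% in siLarp1 libraries, without overlap, from 3, 12, 10 and 14 reads. The upstream Slc3a2 end was used by 34.8% and 29.7% of the reads in siCtl and 41.7% and 43.8% in siLarp1 libraries at 48 h, also without overlap, and by 39.0% to 43.6% and 31.3% to 48.0% at 24 h. The upstream end of Ddit4, 831 nt after the stop codon, was used by 5% and 2.30% in siCtl and 14.3% and 8.47% in siLarp1 libraries at 48 h, without overlap but from 1, 2, 3 and 5 reads, and its groups overlapped at 24 h. These shares are descriptions and were not tested, and how often the ends of other genes were apart at 48 h was not computed. Mthfd2 used its ends at 663, 892 and 942 nt for 38.7%, 13.8% and 47.4% of the reads, with overlapping groups at both times for the first end. At the second end, which had 1, 1, 4 and 1 reads, the groups were apart at 48 h (6.25% and 4.76% in siCtl and 22.2% and 7.69% in siLarp1 libraries) and overlapped at 24 h.

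**Figure D4:**
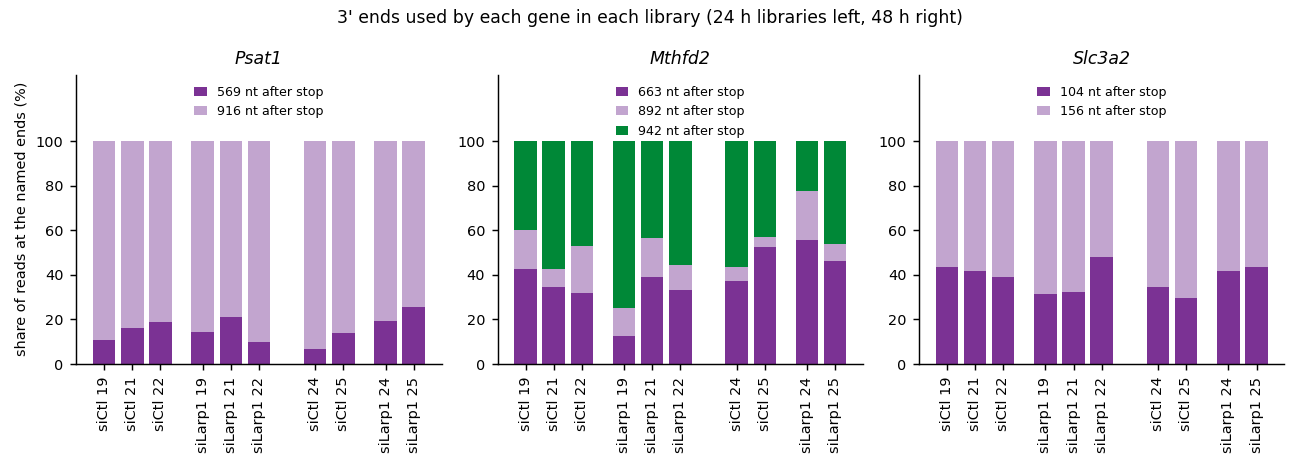
Share of reads at each 3′ end (vertical axis, %, stacked to 100) of Psat1, Mthfd2 and Slc3a2 in each library, with the ends named by their distance in nt from the stop codon. The dark upstream segment of Psat1 is 6.67% and 14.1% in siCtl and 19.2% and 25.5% in siLarp1 libraries at 48 h, and overlaps between treatments at 24 h.

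The wider pathway was followed in lists of other genes. Of 20 further targets of Atf4 and stress response genes 7 had enough reads for the test at 24 h and 2 at 48 h, and none passed. Among the 3 with the smallest p was Eif4ebp1, an inhibitor of cap-dependent translation, with a log2 fold change of 0.02 (SE 0.12) at 24 h and 0.31 (SE 0.21) at 48 h. Xpot, the tRNA exporter, had 0.40 (SE 0.38) at 24 h, and Herpud1, of the protein degradation machinery of the endoplasmic reticulum, 0.32 (SE 0.39). Ddit3, which encodes the stress factor Chop, had 38 reads in all and could not be tested, and Gdf15 and Fgf21 had none.

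All 20 aminoacyl-tRNA synthetase genes were tested at both times, and none passed in either direction. Their median log2 fold change was −0.09 at 24 h and −0.06 at 48 h, beside 0.01 and 0.02 over all genes. Farsb (phenylalanine) had a log2 fold change of −0.73 (SE 0.26) and Yars (tyrosine) of −0.60 (SE 0.27) at 24 h, with adjusted p of 0.827 and 0.847 (limma), and Sars (serine) of −0.51 (SE 0.28) at 48 h. The siLarp1 libraries held 67.3 to 108 RPM of Farsb and the siCtl libraries 139 to 176 RPM at 24 h, without overlap, whereas at 48 h the log2 fold change of Farsb was 0.33 (SE 0.32).

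Of 15 other amino acid transporters 7 were tested at 24 h and 5 at 48 h, and of 20 other amino acid and folate enzymes 15 and 12, with none past the threshold. Slc7a3, a carrier of cationic amino acids, had a log2 fold change of 1.03 (SE 0.49, adjusted p = 0.878, limma) at 48 h, with 50.4 and 62.1 RPM in siCtl and 66.4 and 167 RPM in siLarp1 libraries. Slc1a5 and Slc38a2 are carriers of neutral amino acids. Slc1a5 had −0.86 (SE 0.58) at 24 h, and Slc38a2 −0.19 (SE 0.28) at 24 h and 0.27 (SE 0.38) at 48 h. Cth, which makes cysteine from cystathionine, had 0.85 (SE 0.29, adjusted p = 0.827, limma) at 24 h, with 52.0 to 69.0 RPM in siCtl and 82.2 to 134 RPM in siLarp1 libraries, and 0.30 (SE 0.36) at 48 h. Psph, the last enzyme of serine synthesis, had −0.84 (SE 0.44) at 48 h, and the folate enzyme Mthfd1 0.35 (SE 0.25) at 24 h. Among 33 genes of the stress pathway that controls Atf4 and of mTORC1, its regulators and its target S6K1, 24 were tested at 24 h and 12 at 48 h and none passed. Akt1s1, an inhibitory subunit of mTORC1, had 0.89 (SE 0.42) at 48 h, Eif2s1, the subunit of eIF2 that is phosphorylated, −0.28 (SE 0.16) at 24 h, and Rps6kb1, the kinase S6K1 downstream of mTORC1, 0.62 (SE 0.41) at 24 h.

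The genes whose log2(RPM + 1) followed that of Atf4 most closely over the 10 libraries, among 963 others with at least 300 reads, were Pfkl (Pearson r = 0.90), Stmn1 (0.90), Cltc (0.87), Ndufv3 (0.86) and Pkm (0.83). Ddit4 was 13th (0.77), Shmt2 18th (0.73) and Asns 27th (0.67), and Slc3a2 (0.10) and Psat1 (−0.02) did not follow it. These are descriptions over libraries that share treatments, time points and pools.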

How the data were processed

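The deposited table held 1 line per read and aligned sequence: tail length in nt, its quality tag, barcode confidence as a fraction and mapping quality as a score. Per the study's methods, the authors called bases with Guppy, demultiplexed with Deeplexicon, aligned with Minimap2 (version 2.20 in the submitters' processing notes) to GENCODE vM17 transcripts (mm10) and estimated tails with Nanopolish. Neither the deposited fraction nor the deposited score had been used as a filter.

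Alignments to annotated mRNAs with a PASS tail were kept, without mitochondrial transcripts and pseudogenes, and tallied per gene and library. Groups came from the condition and time of each library. A share of 2.32% of the reads aligned to more than 1 sequence, and 0 to 6 reads of each member did so outside its gene. Reads were scaled to the kept reads of a library (RPM). With limma 3.58.1 in R 4.3.3, abundance (voom, at least 30 reads at the time point), median tail and log2 odds of each tail class (also at least 5 reads in each library, offset 0.5) were fitted across all genes by treatment within each time point, and over 10 libraries for the difference between time points. P-values were Benjamini-Hochberg adjusted over all genes (threshold 0.05). The exact permutation test over both time points was planned for members whose groups were apart in the same direction at both, which none were. Scripts were tested on simulated data. Intervals of shares are exact binomial and cover counting error only. Ends were clusters of alignment ends within 25 nt, with at least 10 reads and 5% of a gene, and those of Shmt2 are not reported here.

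The members and lists were chosen with earlier results of these data known. Named were all 10 members, Larp1, up to 3 genes per list with the smallest p at either time point, and the 5 genes most like Atf4. Alternatives changed barcode confidence (at least 0.9), alignment, depth, filters, scaling, weights, offset, the fit and the libraries included. Among genes with at least 100 reads, the deviations of libraries of the same number correlated weakly. In abundance r was 0.02, 0.13 and 0.13 at 24 h and 0.13 at 48 h. In median tail it lay between −0.02 and 0.01. Counting error lowers such correlations, so they cannot show that the libraries are unpaired. The numbers were not taken as pairs because no pairing is stated.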

Additional observations from a re-analysis of the deposited data

How the results depend on the processing

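No member passed the threshold in abundance, median tail or the 30 to 90 nt class, nor in any difference between time points, under any alternative run. In the <30-nt class Asns did so at 48 h without siLarp1 library 25 (log2 odds 2.15). That fit was left with a single siLarp1 library and also called many other genes, so it gives no result about Asns. The sign of some uncalled effects turned when a library was left out: Ddit4 abundance at 48 h ranged from −1.29 to 0.57 on the log2 scale, and the Atf4 tail difference at 48 h from −40.0 to 18.1 nt. Atf4 abundance at 24 h stayed between 0.22 and 0.39 (adjusted p 0.480 to 0.998), the Mthfd2 tail difference at 24 h between 17.8 and 28.5 nt, and the Psat1 tail difference at 48 h between 10.2 and 25.5 nt.

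Over all genes, the count called in abundance (0 at both times) became 21 at 24 h and 4 at 48 h with the replicate block, 15 and 17 without the filter on low tallies, 2 and 4 with all quality tags, 2 at 24 h per transcript, and 0 to 8 and 0 to 1 with a library left out. No member was among them, and the numbers are not established as pairs. The count for the median tail became 1 at 48 h when thinned and 1 with the block, and 0 to 1 at 24 h and 0 to 9 at 48 h with a library left out. The <30-nt class was unstable: its 20 calls at 24 h became 8 with at least 100 reads, 4 with all libraries in 1 fit, 0 with the block, 42 without weights, 0 with at least 20 reads in each library, 54 with an offset of 0.1, 0 with at least 10 such reads and 3 to 65 with a library left out. Its 0 calls at 48 h became 17 with a barcode confidence of at least 0.9, 20 thinned, 8 with all libraries, 41 with the offset of 0.1, 29 with at least 10 such reads, and 0 to 224 with a library left out (224 without siLarp1 library 25). The differences between time points gave 0 to 1 calls for the 30 to 90 nt class and 0 to 8 for the <30-nt class (1 with all libraries, 0 with the barcode filter or the block). For these the cause was not tested. Depth limits Trib3 (70 reads) and Slc7a5 (129 reads) most.

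The library number term, chosen after the values were seen, called 50 genes at 24 h, and 32 with TMM scaling, 29 with at least 100 reads, 4 thinned and 3 to 56 with a library left out. At 48 h it called 4, and 0 thinned.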

Other observations

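The level of Ddit4 went with the library number of the deposited table, in both treatments and at both time points. A term for the number beside treatment was fitted across all genes by limma voom, a test chosen after the values of Ddit4 had been seen. At 24 h the term was called for 50 of 4800 genes (1.04%), among them 1 of 10 members, Ddit4 (adjusted p = 2.42e-08, rank 13). Library 21 was higher than library 19 by 0.72 (SE 0.20) and library 22 lower by −0.77 (SE 0.24) on the log2 scale. At 48 h it was called for 4 of 2704 genes (0.148%), Ddit4 (adjusted p = 1.13e-06, rank 1), Trh, Utf1 and Ier3, of which Trh and Ier3 were also called at 24 h. Ddit4 was higher in libraries 25 than in libraries 24 by 1.62 (SE 0.26).

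The call rests wholly on the spread borrowed from all genes. Its prior degrees of freedom were infinite at both time points, so that the spread of Ddit4 itself had no weight. The residual degrees of freedom were 2 at 24 h and 1 at 48 h. With reads thinned to equal depth the sizes were 0.69, −0.53 and 1.59, and neither time point passed (adjusted p = 0.304 and 0.866). In the thinned fits the prior degrees of freedom were 21.4 at 24 h and 5.06 at 48 h. At 24 h the adjusted p was 0.475 without siCtl library 21 and 0.102 without siLarp1 library 21, and it ranged from 7.16e-07 to 0.00487 without each of the other 4 libraries. With the number in the fit the siLarp1 difference of Ddit4 at 24 h was 0.20 (SE 0.18) in place of 0.29 (SE 0.28). At 48 h Shmt2 (0.89, unadjusted p = 0.00233), Atf4 (0.55, unadjusted p = 0.00963) and Phgdh (0.50, unadjusted p = 0.0391) were also higher in libraries 25 but were not called by limma after adjustment. Libraries of the same number shared a barcode across treatments at 24 h, but not at 48 h. Whether they also shared a culture or a day is not stated, and what sets the numbers apart was not tested.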
